A study of Mus musculus with 12 samples.

Results

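The galectin genes expressed in transfected mouse hematopoietic stem and progenitor cells (HSPC), Lgals1, Lgals3, Lgals4, Lgals8 and Lgals9, were followed together with Lgals3bp, which encodes a glycoprotein that galectin-3 binds. These 6 genes were taken by name from the 48709 genes listed in each of 2 expression tables, and all 6 had a mean of at least 1 RPKM (reads scaled to gene length and library total) in both tables. The family was chosen by the RPKM of Lgals3, which was higher in all 3 miR184 libraries, so its members are described in the miR184 comparison without a test, and are tested only in the miR499 comparison. Other genes were tested in both.

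HSPC give rise to every blood lineage. Here they were sorted from the bone marrow of wild-type (WT) mice and transfected with a microRNA, and RNA-seq followed after 2 days. The groups were miR184 (libraries 1 to 3) against control miR (controls 1 to 3) in one table, and miR499 (libraries 1 to 3) against control miR (controls 4 to 6) in the other, so that each miRNA had its own 3 controls. Groups follow the sample titles, since the descriptions put the word control before both miRNA names as well. Separate animals or cultures are not named in the labels. The p-values therefore cover the spread among these libraries alone, and it may be technical. Descriptions of controls 4 to 6 hold extra digits that those of the miR499 libraries lack. A difference of preparation that these digits may stand for cannot be told apart from miR499.

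Galectins are lectins that bind glycans carrying beta-galactoside sugars. They are made without a signal peptide, act inside the cell and leave it by an unconventional route, and then cross-link glycoproteins on cell surfaces. Galectin-1 has a lone carbohydrate-recognition domain and forms dimers, galectin-3 joins such a domain to a proline- and glycine-rich tail through which it oligomerises, and galectins 4, 8 and 9 carry a pair of such domains in one chain. In blood cells galectin-3, also called Mac-2, is known as a protein of monocytes and macrophages.

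The mature miRNAs that the transfected names stand for have the sequences printed here, from RefSeq on GRCm38.p6, because the family's transcripts were searched for their seeds. Both arms of each hairpin are given, 5′ to 3′, with the seed (bases 2 to 8) in capitals, and no 2 of the 4 share a seed.
mmu-miR-184-3p: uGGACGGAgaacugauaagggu
mmu-miR-184-5p: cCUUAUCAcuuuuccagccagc
mmu-miR-499-5p: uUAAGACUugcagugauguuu
mmu-miR-499-3p: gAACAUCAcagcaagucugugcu
The miR-184 arms lie on chromosome 9 (89802263 to 89802284 and 89802302 to 89802323, minus strand) and the miR-499 arms on chromosome 2 (155622893 to 155622913 and 155622929 to 155622951, plus strand). The precursor genes Mir184 and Mir499 were listed at 0 in all 12 libraries, and such short entries need not show a transfected mature miRNA, so they do not check the labels.

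No 3′ UTR of the family held a seed match of either miR-184 arm, counting 8mer, 7mer-m8 and 7mer-A1 sites in the longest annotated 3′ UTR of a complete transcript (GENCODE M21, GRCm38). Among 9804 expressed genes, 4.85% had a 3′ UTR site of miR-184-3p and 17.2% one of miR-499-5p. Lgals8 had 2 sites of miR-499-5p in a 3′ UTR of 1430 bases, and Lgals1 had 1 in a 3′ UTR of 321 bases; 2 or more such sites were found in 3.24% of the genes. These windows are shown because Lgals8 and Lgals1 are the members with sites and were tested in the miR499 libraries; capitals mark the match.
Lgals8, 7mer-m8: ccatcagcAGTCTTActcaaggc
Lgals8, 8mer: gtagattcAGTCTTAAgttcttag
Lgals1, 7mer-A1: ccgcatttGTCTTAAtaaaagcc
The Lgals8 matches lie at chr13:12439847-12439853 and chr13:12439559-12439566 on the minus strand, and the Lgals1 match at chr15:78930441-78930447 on the plus strand (GRCm38). In coding sequence, Lgals9 had 1 match of miR-184-3p (found in 7.91% of genes) and Lgals3 had 1 of miR-499-3p (15.9%). A match describes letters in a sequence and does not show that a transcript is bound.

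Library totals recovered from the RPKM values ran from 31990355 to 46601798 reads. Members rested on 6989 to 61946 reads a library for Lgals1, Lgals3, Lgals9 and Lgals3bp, on 1483 to 3274 for Lgals8 and on 23 to 251 for Lgals4. Fewer genes were above 0 in miR184 3 (13675) than in the other 5 libraries of its table (16702 to 17136). In miR499 3 the RPKM values summed to 391857, against 465018 to 483368. Both libraries stand apart from their groups. Some values of miR499 3 lay nearer the miR184 table, whose RPKM values summed to 356702 to 369489. Lgals1 stood at 785 RPKM in miR499 3, 520 to 580 in the miR184 table and 1387 to 1749 in the rest of its own. H2-Aa, an MHC class II gene, instead stayed within its own table's range, at 8.15 RPKM against 32.9 to 53.5 in the miR184 table. A difference of preparation or label in miR499 3 was not tested. The HSPC label was checked against 9 markers. Kit, the stem cell factor receptor, stood at 46.9 to 57.1 RPKM in the miR184 table, at 34.3 in miR499 3 and at 8.17 to 14.1 in the other 5 libraries of the miR499 table, and Cd34 stood at 109 to 122 RPKM in the miR184 table and 53.6 to 91.1 in the miR499 table. Myb stood at 59.6 to 93.2 RPKM and Ly6a at 29.7 to 147. Gata2 stood at 25.1 to 51.1 RPKM and Flt3 at 13.6 to 22.6. Meis1, Erg and Hlf were lower, at 3.29 to 13.7, 3.53 to 6.34 and 1.28 to 3.39 RPKM. Genes of myeloid cells were high as well, with 10 neutrophil markers summing to 6600 to 10689 RPKM and the myeloid lysozyme gene Lyz2 at 1751 to 3022. Most of the neutrophil sum came from Elane, Mpo, Prtn3 and Ctsg. S100a8 and S100a9 stood at 71.7 to 933 RPKM and Ngp at 0.931 to 35.2, while Ltf, Camp and Retnlg reached at most 1.51, 4.60 and 0.551. The mast cell and basophil marker Mcpt8 stood at 343 to 1872 RPKM and the megakaryocyte marker Pf4 at 454 to 1576. Of 7 stromal and endothelial markers, 6 were under 1 RPKM in all 12 libraries.

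Lgals3 (ENSMUSG00000050335, chromosome 14, 47367751 to 47386160, plus strand, GRCm38) was the member for which the family was chosen. It stood at 181, 169 and 151 RPKM in miR184 1, 2 and 3, against 115, 113 and 105 RPKM in controls 1, 2 and 3. All 3 miR184 libraries lay above all 3 controls, and the ratio of the means was 1.51, with a log2 change of 0.58 ± 0.08 (SE) that ranged over 0.52 to 0.65 when any 1 library was left out. Groups lay apart in this upward direction in 7.3% of the 10372 genes tested in the table, in the downward direction in 4.41% and in either in 11.7%, and because these values chose the gene, nothing is read from the count. In bulk RNA, more cells of a type and more RNA per cell cannot be told apart.

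**Figure D1:**
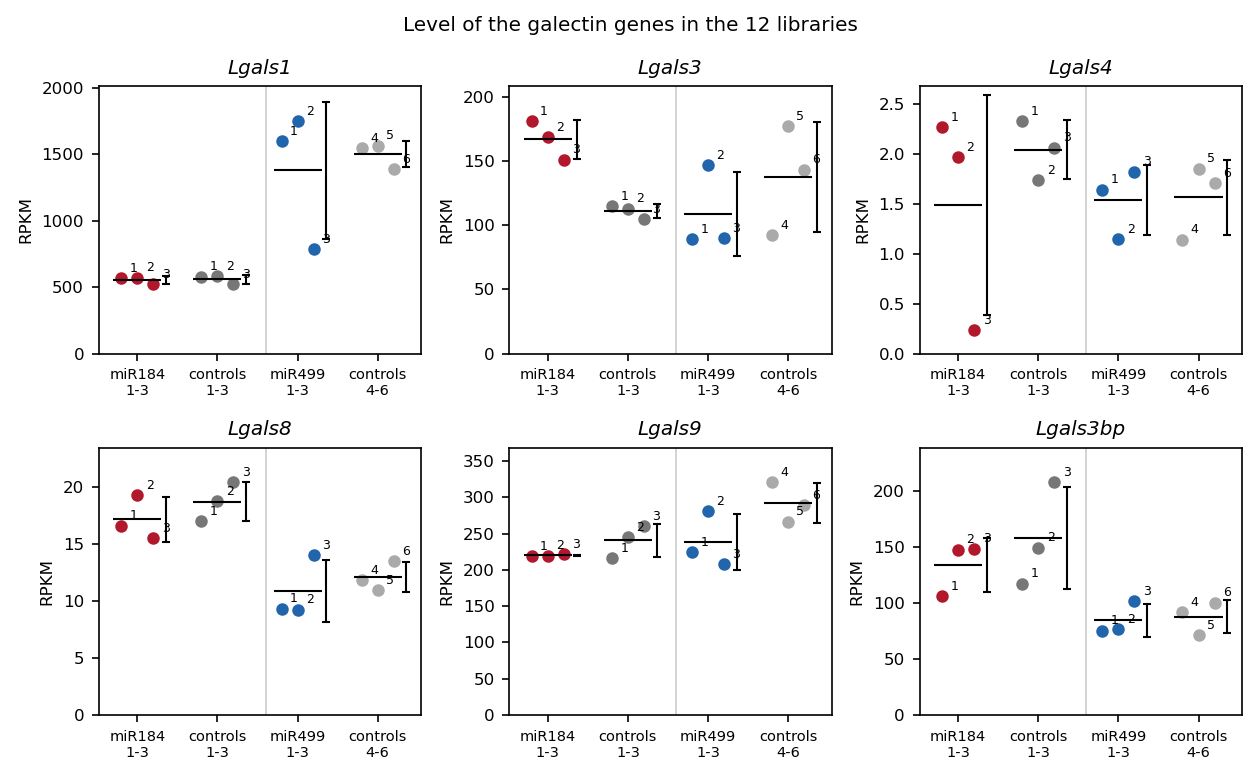
RPKM (y axis, linear) of the 6 genes in each of the 12 libraries, with miR184 left of controls 1 to 3 and miR499 left of controls 4 to 6. Points are libraries with their numbers, lines are means and bars are the SD (n = 3 each). Lgals3 separates miR184 from controls 1 to 3, while controls 4 to 6 span 92.0 to 177 RPKM.

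In the other table the Lgals3 means lay closer together, at 109 ± 32.9 RPKM in miR499 libraries and 137 ± 42.8 RPKM in controls 4 to 6 (SD, n = 3 each), than the SD of either group. It stood at 89.1, 147 and 90.0 RPKM in miR499 1, 2 and 3, against 92.0, 177 and 143 RPKM in controls 4, 5 and 6. The groups overlapped, with control 4 close to the lower miR499 libraries and miR499 2 above control 6. The log2 change was -0.33 ± 0.29 (SE), with a 95% interval of -1.02 to 0.37 and an adjusted p of 0.630 by limma with Benjamini-Hochberg adjustment over 9815 genes. The log2 change was -0.12 without control 5, -0.21 without miR499 1 or without miR499 3, -0.56 without miR499 2 and -0.59 without control 4. The interval with all libraries includes 0 and reaches -1.02, so the test does not show that miR499 left Lgals3 as it was.

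The spread of Lgals3 among controls 4 to 6 stood out against genes of like level. Its highest value was 1.92 times its lowest, where the median was 1.08 among 823 genes within 2-fold of its level, and 99.5% of those genes had a lower ratio. In controls 1 to 3 the ratio was 1.10, against a median of 1.09. Of the miR184 values, 169 and 151 RPKM fell inside the range of controls 4 to 6 and 181 RPKM fell above it. Each table is a separate set of libraries, so nothing is read from this.

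The genes whose levels followed Lgals3 most closely over the 12 libraries were Cd68, Clec4a3, H2-DMb1, Ctss and Clec4n. Likeness was Pearson's r of log2(RPKM + 1) after the mean of each table was subtracted, over 12 libraries and 5571 genes with a mean of at least 5 RPKM in both tables, and is a description without a p, as libraries of a table share their preparation. The 5 highest were Cd68, a lysosomal glycoprotein of macrophages, at 0.89, the C-type lectin receptor gene Clec4a3 at 0.82, H2-DMb1, which helps to load MHC class II, at 0.80, the lysosomal protease gene Ctss at 0.80, and Clec4n, which encodes the lectin receptor Dectin-2, at 0.79. These values hold the miR184 difference that chose the family. With the mean of each group of 3 libraries removed instead, a setting added after seeing the data, r was 0.80 for Cd68, 0.89 for Clec4a3, 0.75 for H2-DMb1, 0.65 for Ctss and 0.78 for Clec4n. Their ranks among the 5571 genes were then 8, 1, 19, 67 and 12 in that order, so Clec4a3 alone stayed among the 5 highest. Cd68 stood at 65.2, 71.8 and 70.4 RPKM in miR184 1 to 3, against 51.8, 50.1 and 56.4 RPKM in controls 1 to 3. It stood at 62.3, 86.8 and 55.8 RPKM in miR499 1 to 3, against 70.6, 93.6 and 78.2 RPKM in controls 4 to 6, so that miR499 2 and control 5 were the highest of their groups in both Cd68 and Lgals3. Of the other members, Lgals4 was below that level, and r was 0.34 for Lgals1, 0.10 for Lgals9, -0.23 for Lgals8 and -0.45 for Lgals3bp.

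**Figure D2:**
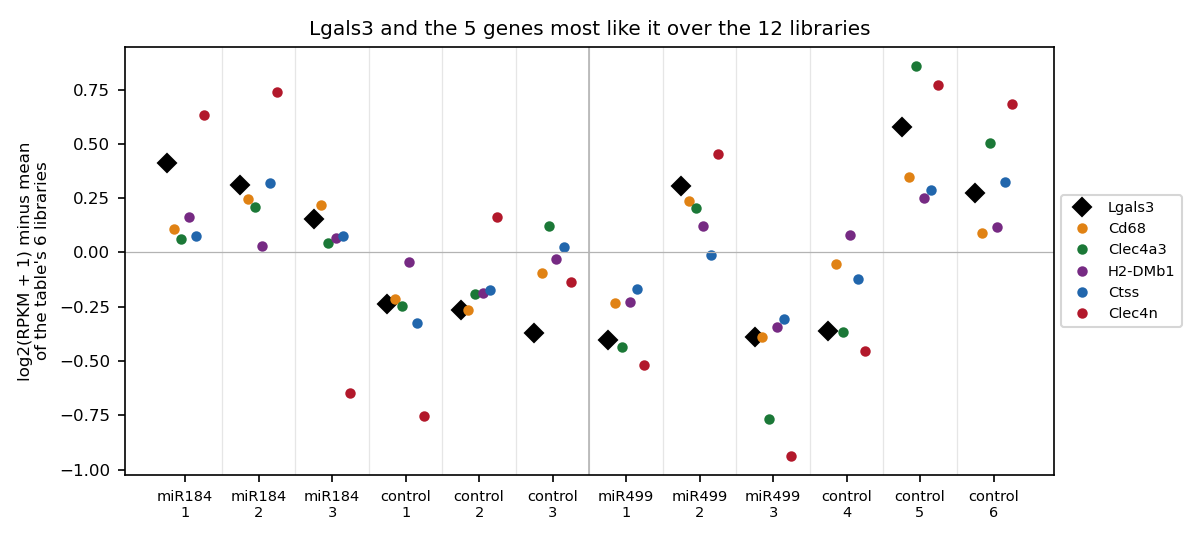
log2(RPKM + 1) minus the mean of the table's 6 libraries (y axis) for Lgals3 (diamonds) and the 5 genes most like it (circles) in each library (x axis). In control 5 all 6 genes lie above their table's mean, and in miR499 1 and miR499 3 all 6 lie below it.

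The monocyte and macrophage marker list held genes apart in both directions. The 11 markers summed to 2334 to 2447 RPKM in miR184 libraries and 2266 to 2558 RPKM in controls 1 to 3, with Cd68 and C1qc apart in the upward direction and Adgre1 in the downward one. They summed to 1847 to 2123 RPKM in miR499 libraries and 2442 to 3155 RPKM in controls 4 to 6, with Cd14 and Lyz2 apart in the downward direction and none in the upward. The tissue macrophage genes Mrc1, C1qa and C1qc stayed under 1 RPKM in all 12 libraries. The 6 dendritic cell markers summed to 384 to 442 RPKM in miR184 libraries and 262 to 333 RPKM in controls 1 to 3, with the MHC class II genes H2-Aa, H2-Ab1 and Cd74, which make up most of the sum, apart in the upward direction. The other 3, Cd209a, Siglech and Itgax, overlapped between the groups. In the miR184 comparison groups lay apart upwards in 7.3% and downwards in 4.41% of all genes tested. In the miR499 comparison these shares were 11.4% and 12.8%. The part of these cells in the values of Lgals3 was not tested.

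Lgals1 (ENSMUSG00000068220, chromosome 15, 78926725 to 78930465, plus strand) was the most abundant member in all 12 libraries. It stood at 567, 570 and 521 RPKM in miR184 1, 2 and 3, against 578, 580 and 520.03 RPKM in controls 1, 2 and 3. The groups overlapped almost fully, and the ratio of the means was 0.988. It stood at 1595, 1749 and 785 RPKM in miR499 1, 2 and 3, against 1545, 1563 and 1387 RPKM in controls 4, 5 and 6. Here miR499 1 and 2 lay above all 3 controls and miR499 3 far below them. With all libraries Lgals1 differed by -0.20 ± 0.32 (SE, log2) at an adjusted p of 0.769 in limma. Without miR499 3 it differed by 0.16 ± 0.09 at an adjusted p of 0.253 in limma, so 1 library set its sign. Within its table that library also had the highest level of Mpo, a granule enzyme of early myeloid cells. Mpo stood there at 3992 RPKM, against 1167 to 2051 RPKM in the other 5 libraries. In the miR184 table Mpo stood at 3804 to 4312 RPKM, a range that holds the value of miR499 3. The part of cell make-up, preparation or label of miR499 3 in its value of Lgals1 was not tested. The pseudogenes Lgals1-ps1 and Lgals1-ps2 could draw reads from Lgals1, and both were listed at 0 in all 12 libraries.

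Lgals9 (ENSMUSG00000001123, chromosome 11, 78962974 to 78984946, minus strand) encodes galectin-9, a ligand of the receptor TIM-3. It stood at 219, 220 and 221 RPKM in miR184 1, 2 and 3, against 216, 245 and 261 RPKM in controls 1, 2 and 3. The miR184 libraries were nearly equal and sat at the low end of the control range. It stood at 225, 281 and 208 RPKM in miR499 1, 2 and 3, against 321, 267 and 289 RPKM in controls 4, 5 and 6. Both miR499 1 and 3 lay below all controls, while miR499 2 lay inside their range. The log2 change with miR499 was -0.30 ± 0.16 (SE), with a 95% interval of -0.68 to 0.08 and an adjusted p of 0.508 by limma, the smallest of the 6 members in that comparison.

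Lgals3bp (ENSMUSG00000033880, chromosome 11, 118392751 to 118402092, minus strand) is no galectin but a secreted, heavily glycosylated partner of galectin-3, and like Lgals9 it is known as an interferon-inducible gene. It stood at 106, 148 and 149 RPKM in miR184 1, 2 and 3, against 117, 150 and 208 RPKM in controls 1, 2 and 3. Control 3 was the highest library of its table for Lgals3bp, for Lgals9 and for the summed level of 19 interferon-stimulated genes, a list chosen after values were seen. That sum was 437, 734 and 539 RPKM in miR184 1, 2 and 3, against 478, 716 and 1217 RPKM in controls 1, 2 and 3. Without control 3 the log2 change of Lgals3bp with miR184 was 0.0023, against -0.21 with all libraries, and it was -0.055 without miR184 1 and -0.41 without control 1. The part of the interferon genes in it was not tested.

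With miR499 the groups overlapped in Lgals3bp. It stood at 75.3, 76.7 and 102 RPKM in miR499 1, 2 and 3, against 91.8, 71.7 and 100.4 RPKM in controls 4, 5 and 6. The log2 change was -0.06 ± 0.18 (SE; adjusted p = 0.897, limma), with a 95% interval of -0.49 to 0.38. The interferon sum was 790, 970 and 409 RPKM in miR499 1, 2 and 3, against 759, 519 and 928 RPKM in controls 4, 5 and 6. Controls 4 to 6 had the same order in Lgals3bp and in that sum, while miR499 3 was the highest of its group in Lgals3bp and the lowest in the sum.

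Of the 5 members with a promoter sequence in the RefSeq table, Lgals9 alone matched the core letters of an interferon response element (GAAA, any 2 bases, GAAA, on either strand) within 250 bases before to 50 after its start. It matched 2 times, while 3.44% of 32851 promoters held at least 1 match. The windows are shown on the strand of the gene, where the element reads in reverse complement, with the match in capitals.
Lgals9, upstream: acatcagcTTTCTTTTTCtctagaca
Lgals9, downstream: agctgtggTTTCTGTTTCctagctca
They span chr11:78984962-78984987 and chr11:78984892-78984917 (minus strand, GRCm38.p6), and the first letter of the match lies 55 bases before and 15 bases after the start. Lgals3bp had no match in this window, which says only that these letters are not in it.

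Lgals8 (ENSMUSG00000057554, chromosome 13, 12439415 to 12464944, minus strand) encodes galectin-8, which recognises glycans exposed on damaged endosomes. With miR184 it stood at 16.6, 19.3 and 15.6 RPKM in libraries 1, 2 and 3, against 17.0, 18.8 and 20.4 RPKM in controls 1, 2 and 3. The groups overlapped. With miR499 it stood at 9.35, 9.27 and 14.0 RPKM in libraries 1, 2 and 3, against 11.8, 10.99 and 13.5 RPKM in controls 4, 5 and 6. Thus miR499 1 and 2 lay below all 3 controls, and miR499 3 above them.

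Lgals8 was the single member to pass the test in any setting of the miR499 comparison, and it passed in 1 setting. With all 6 libraries its log2 change was -0.16 ± 0.19 (SE; adjusted p = 0.707, limma). Without miR499 3, Lgals8 was lower at 9.31 RPKM on average in miR499 1 and 2, against 12.1 RPKM in controls, and its log2 change of -0.34 ± 0.10 passed with an adjusted p of 0.049 in limma. In that fit 17.1% of 9815 genes passed, and 13.7% passed downwards, so 1 of 6 members is close to the background. Groups then lay apart in 52% of genes, upwards in 17.9% (as for Lgals1) and downwards in 34.1% (as for Lgals8). With median-ratio scaling as well, the log2 change was -0.27 ± 0.10 and the adjusted p 0.102 by limma, so the call also rested on the scaling. With that scaling 12.6% of genes passed, and 6.49% passed downwards. Exons of Heatr1, a gene of ribosome production on the opposite strand, overlap those of Lgals8 over 155 bases, and the use of strand in counting is not given in the sources used here. Heatr1 stood at 2.55, 1.71 and 7.41 RPKM in miR499 1, 2 and 3, against 1.71, 1.70 and 1.51 RPKM in controls 4, 5 and 6. Within that table Heatr1 was thus highest in miR499 3, as Lgals8 was. In the miR184 table Heatr1 stood at 8.35 to 13.6 RPKM. The part of Heatr1 in the value of Lgals8 was not tested.

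Lgals4 (ENSMUSG00000053964, chromosome 7, 28833854 to 28841708, plus strand), known mainly from gut epithelium, was the least abundant member. It stood at 2.26, 1.97 and 0.231 RPKM in miR184 1, 2 and 3, against 2.33, 1.73 and 2.06 RPKM in controls 1, 2 and 3. The low value came from 23 reads in miR184 3, the library with few genes above 0, and without it the log2 change was 0.04 in place of -0.41. It stood at 1.64, 1.14 and 1.82 RPKM in miR499 1, 2 and 3, against 1.14, 1.85 and 1.70 RPKM in controls 4, 5 and 6. The groups overlapped, differing by -0.02 ± 0.18 (SE, log2) at an adjusted p of 0.970 in limma. Lgals6, a close copy of Lgals4 carried by some mouse strains, was looked up and had no entry under that name, so it has no value here.

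**Figure D3:**
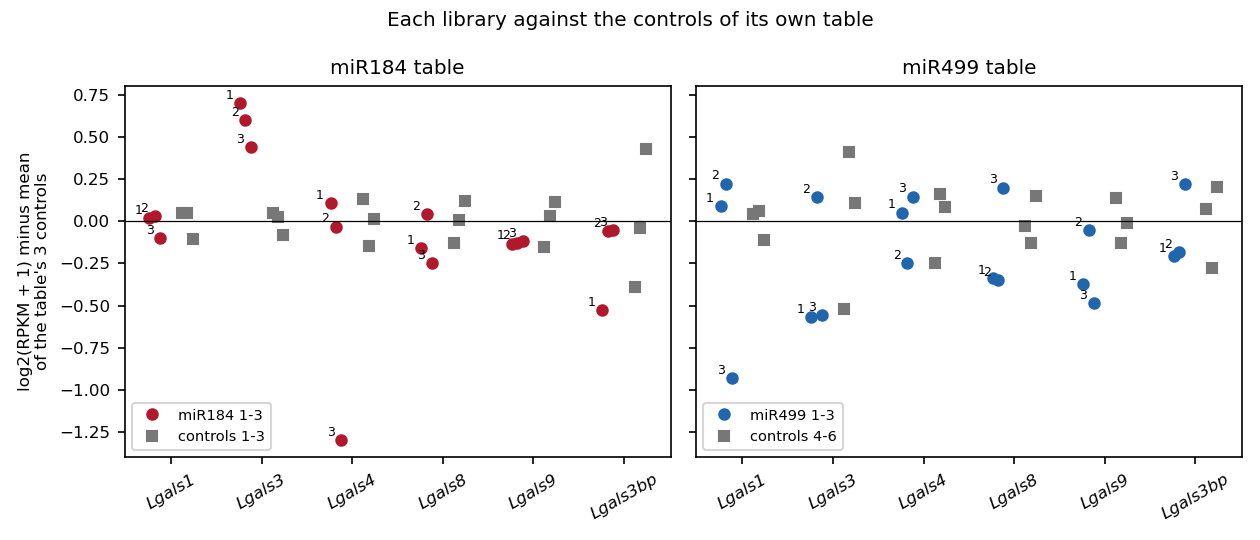
log2(RPKM + 1) of each library minus the mean of the 3 controls of its table (y axis) for the 6 genes (x axis), with miRNA libraries as numbered circles and controls as squares. Lgals3 in the miR184 table is the one gene whose circles all lie on one side of the squares, and miR184 3 and miR499 3 carry the extreme values of Lgals4 and Lgals1.

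As a family the members did not move together with either miRNA. With miR184, Lgals3 was higher and the other 5 members lower in the log2 mean, though the sign turned for Lgals1 without miR184 3, control 1 or control 2, for Lgals4 without miR184 3 and for Lgals3bp without control 3. The changes had a median over the 6 of -0.12 against 0.0022 over all genes tested, and the groups lay apart for 1 of 6 members, against 11.7% of all genes. That member was Lgals3, whose values chose the family. With miR499 all 6 members were lower in the log2 mean (median -0.18 against -0.0072 over all genes), but the sign of Lgals1 turned without miR499 3, that of Lgals3bp without miR499 1, miR499 2 or control 6, that of Lgals4 without miR499 2, control 5 or control 6, and both of these with libraries scaled to the same sum. The groups overlapped for all 6 members, while they lay apart in 24.2% of the genes tested, upwards in 11.4% and downwards in 12.8%. By limma, 0 of the 6 members and 0 of 9815 genes passed an adjusted p of 0.05, where 992 genes and 0 members had an unadjusted p under 0.05. By limma voom on recovered reads the counts were 0 genes passing and 967 at that unadjusted p.

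**Figure D4:**
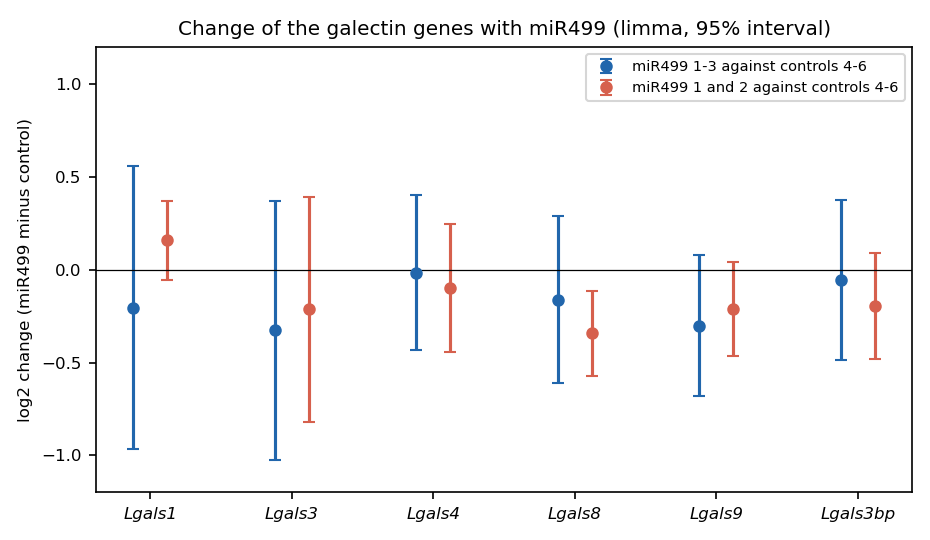
log2 change (y axis, miR499 minus control) of the 6 genes by limma with 95% intervals, with all 3 miR499 libraries (blue) and without miR499 3 (red). All intervals but that of Lgals8 without miR499 3 include 0.

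The make-up of galectin transcripts differed more between the tables than between treated and control libraries. Lgals1 held 57.3% to 58.2% of the summed RPKM of the 5 galectin genes in miR184 libraries and 57.3% to 62.3% in controls 1 to 3. It held 71.5% to 83.1% in miR499 libraries and 75.6% to 78.4% in controls 4 to 6. Lgals9 came next in the order, then Lgals3, and Lgals8 and Lgals4 followed far below, in all 12 libraries. The share of Lgals3 was 16.6% to 18.4% in miR184 libraries, against 11.5% to 12.4% in controls 1 to 3. In miR499 libraries it was 4.64% to 8.19%, against 4.67% to 8.76% in controls 4 to 6. Lgals3bp and Lgals3 were neighbours in level that changed places, with Lgals3 the higher in all 3 miR184 libraries and Lgals3bp the higher in all of controls 1 to 3. The margin was narrow in miR184 3 (Lgals3 at 151 and Lgals3bp at 149 RPKM) and in control 1 (115 and 117 RPKM). Both this order and the share of Lgals3 restate the values that chose the family, so nothing is read from them.

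**Figure D5:**
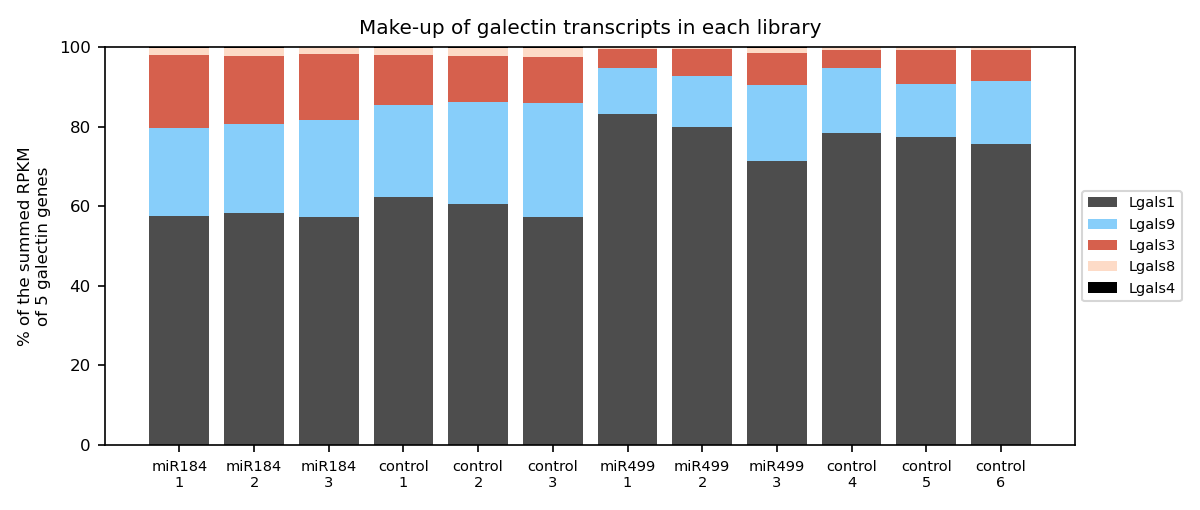
Share of each gene in the summed RPKM of the 5 galectin genes (y axis, percent) in the 12 libraries (x axis), stacked from Lgals1 at the base to Lgals4, whose share is too thin to see. Lgals1 holds more in the miR499 table than in the miR184 table, and Lgals3 holds 16.6% to 18.4% in miR184 libraries.

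Levels in the control cells of the 2 tables, which both received control miR, were set side by side without a test, because each table is a separate set of libraries. Lgals1 averaged 1498 ± 96.8 RPKM in controls 4 to 6 and 559 ± 34.1 RPKM in controls 1 to 3 (SD, n = 3 each), a ratio of 2.68 that exceeds that of 98.2% of 9287 genes. Lgals9 averaged 292 ± 27.1 and Lgals3 137 ± 42.8 RPKM in controls 4 to 6, against 241 ± 22.5 and 111 ± 5.42 RPKM in controls 1 to 3. Lgals8 averaged 12.1 ± 1.30 and Lgals3bp 87.9 ± 14.7 RPKM in controls 4 to 6, against 18.8 ± 1.71 and 158 ± 45.9 RPKM in controls 1 to 3. The median gene had a ratio of 0.811. Descriptions of controls 4 to 6 hold extra digits absent from those of all other libraries, the miR499 libraries among them. These differences therefore cannot be told apart from how the tables were prepared. The same digits part controls from treated libraries within the miR499 comparison.

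Galectins act through glycans that other enzymes build, and these enzymes were listed as well: 19 genes of N-glycan branching, poly-lactosamine extension, core O-glycans and capping, 16 of them tested in each comparison. With miR184, 6 were higher and 10 lower (median -0.06, against 0.0022 over all genes), and 0 passed. The smallest p belonged to C1galt1c1, the chaperone of the core O-glycan enzyme, at 48.3, 48.5 and 27.6 RPKM in miR184 1, 2 and 3, against 54.6, 58.9 and 57.3 RPKM in controls 1, 2 and 3 (log2 change -0.49 ± 0.20 SE, at an adjusted p of 0.827 in limma). Its low value came from miR184 3, and without that library the log2 change was -0.23. With miR499, 14 were higher and 2 lower (median 0.18, against -0.0072), and 0 passed; without miR499 3 the median was 0.057, against -0.060 over all genes. The smallest p belonged to B4galt1, which adds the galactose that galectins bind, at 15.6, 16.2 and 15.0 RPKM in miR499 1, 2 and 3, against 12.6, 10.9 and 11.4 RPKM in controls 4, 5 and 6 (log2 change 0.40 ± 0.12 SE, at an adjusted p of 0.491 in limma). Its groups lay apart, as did those of Man2a2, an N-glycan trimming enzyme, and of Mgat4a, a branching enzyme, with log2 changes of 0.63 ± 0.22 and 0.35 ± 0.12. Of the 16 genes, 5 lay apart upwards and 1 downwards, against 11.4% and 12.8% of all genes tested. Without miR499 3, B4galt1 rose, with a log2 change of 0.43 ± 0.09 at an adjusted p of 0.019 in limma, Mgat2 fell, and the other 14 did not pass, where 17.1% of all genes passed. With median-ratio scaling as well, B4galt1, C1galt1, Man2a2, Mgat4a and Mgat5 rose and Mgat2 fell, where 12.6% of all genes passed.

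Glycoproteins that galectins bind were measured by 16 listed genes, of which 13 were tested in each comparison. With miR184, 6 were higher and 7 lower, and 0 passed. Lamp1, the lysosomal membrane glycoprotein, had the smallest p, at 26.8, 41.2 and 29.3 RPKM in miR184 1, 2 and 3, against 22.4, 19.3 and 19.0 RPKM in controls 1, 2 and 3 (log2 change 0.63 ± 0.15 (SE), adjusted p = 0.460, limma). Its miR184 libraries all lay above the controls. Of the 13 genes, 2 lay apart upwards, Lamp1 among them, and 1 downwards, against 7.3% and 4.41% of all genes tested. With miR499, 8 were higher and 5 lower (median 0.085, against -0.0072 over all genes), and 0 passed. The median was 0.052 without miR499 3, against -0.060 over all genes. Spn, which encodes the sialoglycoprotein CD43, differed by 0.35 ± 0.14 in log2, at an adjusted p of 0.491 in limma. Without miR499 3, Bsg, Havcr2 (which encodes TIM-3), Lamp1 and P4hb fell and the other 9 did not pass, where 13.7% of all genes passed downwards. With median-ratio scaling as well, Havcr2, Lamp1 and P4hb fell and Spn rose, and Bsg no longer passed, where 12.6% of all genes passed and 6.49% passed downwards.

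Handling of damaged endolysosomes, in which cytosolic galectins 3, 8 and 9 take part, was followed by 21 listed genes, all tested. With miR184, 14 were higher and 7 lower (median 0.03, against 0.0022 over all genes), and 0 passed. Sqstm1, the autophagy receptor p62, had the smallest p, at 78.3, 89.4 and 98.7 RPKM in miR184 1, 2 and 3, against 62.8, 75.6 and 73.8 RPKM in controls 1, 2 and 3 (log2 change 0.32 ± 0.10 (SE), adjusted p = 0.786, limma). Trim16, a partner of galectin-3 on damaged membranes, stood at 7.57, 7.50 and 7.49 RPKM in miR184 1, 2 and 3, against 6.14, 7.28 and 6.74 RPKM in controls 1, 2 and 3. Both genes were higher in all 3 miR184 libraries than in any control of the table, and 2 others of the 21 were lower in all 3, where groups lay apart upwards in 7.3% and downwards in 4.41% of all genes. With miR499, 12 were higher and 9 lower (median 0.075, against -0.0072 over all genes), and 0 passed; without miR499 3 the median was -0.12, against -0.060, so that library set its direction. Tsg101, a subunit of the ESCRT machinery, differed by -0.32 ± 0.11 in log2, at an adjusted p of 0.491 in limma, and Becn1, which starts autophagosomes, by -0.33 ± 0.11. Without miR499 3, both fell together with Sqstm1, Tax1bp1 and Vcp, and 0 of the 21 rose, where 13.7% of all genes passed downwards. With median-ratio scaling as well, Sqstm1 and Tax1bp1 fell and the other 19 did not pass, where 6.49% of all genes passed downwards. Across the 3 lists 11 of 50 genes passed without miR499 3, against 17.1% of all genes. With median-ratio scaling as well 12 passed, against 12.6% of all genes.

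Of the other galectin family genes, Lgalsl, which encodes a galectin-related protein, was about as abundant as Lgals4, at 0.728 to 2.58 RPKM in the 12 libraries. Lgals7, Lgals12 and Grifin reached at most 4 reads in any library, and Lgals2 was listed at 0 in all 12, where 0 reads allow up to 3.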

How the data were processed

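A PicoPure kit gave the RNA of the sorted cells for RNA-seq, per the labels' protocols. The authors deposited 2 tables of RPKM, per the file headers, so reads were divided by gene length and library total. The submitters' processing notes name mm10. The sources used here do not give the aligner, counter, annotation or use of strand. Gene models came from GENCODE M21 and miRNA and promoter sequences from RefSeq, both on GRCm38.

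Groups came from sample titles. Whole reads were recovered from RPKM steps for 100% of 21134 genes above 0, within 0.01 reads. For 14845 of them the GENCODE exon length gave whole reads. For the others the shortest length that gave whole reads was taken, so their recovery is no check of the counts. Lgals1 was one of these, with a length of 800 bases taken and 903 annotated. Between replicates, chi-square over its degrees of freedom ran from 9.41 to 396, so none was counted as a second deposit. Each miRNA was tested against its table's controls with limma 3.58.1 (R 4.3.3), two-sided, with an intensity trend, on log2(RPKM + 1), for genes of mean RPKM 1 or more, with 0.05 as the limit of the Benjamini-Hochberg adjusted p. On this scale fold changes understate low genes. An exact test of 3 against 3 cannot go below p = 0.1. Intervals cover 95%; a count of 0 allows up to 3 reads, for counting error only. Alternatives covered pseudocount, filter, scaling, trend, voom, a joint fit, a replicate block and each library left out.

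Members and lists were chosen with earlier results of these data known. Named genes were all members, the 5 most like Lgals3 and up to 3 of smallest p per list. The interferon list, Heatr1 and genes that passed without miR499 3 were added after values were seen. Python 3.11.15 (numpy 2.4.6, pandas 2.3.3, matplotlib 3.10.9) was used.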

Additional observations from a re-analysis of the deposited data

How the results depend on the processing

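In the miR499 comparison the log2 changes of Lgals3, Lgals8 and Lgals9 kept their sign under all alternatives run, with ranges of -0.59 to -0.12, -0.34 to -0.07 and -0.43 to -0.13. Leaving out 1 library at a time gave 0 to 2 passing genes for miR184 and 0 to 1681 for miR499, of which 0 to 1 galectin member and 0 to 11 list genes. It moved the miR499 change of Lgals1 over -0.42 to 0.16, of Lgals4 over -0.14 to 0.10 and of Lgals3bp over -0.19 to 0.046. Median-ratio scaling without miR499 3, added after seeing the data, gave 1235 passing genes, 12 list genes and 0 members, and Lgals1 at 0.24. With RPKM scaled to the same sum, Lgals4 stood at 0.041 and Lgals3bp at 0.030. With limma voom, Lgals4 in the miR184 comparison stood at -1.01 without a pseudocount of 1. With a replicate block, 2 genes passed for miR184 and 426 genes, 4 of them list genes, for miR499, where Lgals1 stood at 0.10. Same-numbered libraries correlated in their deviations at 0.06, -0.05 and -0.03 in the miR184 table (numbers of titles) and at 0.20 and -0.35 in the other (numbers of descriptions). Numbers in titles and descriptions differ for some libraries. So few pairs cannot show whether the libraries were paired, and the block of the miR499 table rests on 2 pairs. At a mean RPKM of at least 5 Lgals4 was not tested. The cause of these shifts was not tested. Depth limits Lgals4 most, with 23 to 251 reads a library.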
